A study of Homo sapiens with 6 samples.

Results

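The aryl hydrocarbon receptor genes and the CYP1 enzymes were followed in SW620, an established cell line from a human colorectal cancer. The 6 genes are AHR, ARNT, AHRR, TIPARP, CYP1A1 and CYP1B1, taken by gene symbol from the 60605 genes of the deposited table. They were selected on measured values, the fold changes of CYP1A1 and CYP1B1 between the groups of these same libraries, so their own differences between the groups are given as a description and carry no test. The vector group is 3 libraries of cells with the empty lentiviral vector pLVX-IRES-Puro, the negative control, and the ELAPOR1 group is 3 libraries of cells with the same vector carrying ELAPOR1. Infection was at a multiplicity of 20 for both populations, which were then kept under puromycin at 2 ug/ml and grown in medium with 10% serum, with no further treatment named in the labels. Each is a stably selected population, and the labels do not say whether the libraries of a group came from separate infections or cultures, so a p-value here speaks only to how these libraries scatter, and that scatter may be technical.

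The aryl hydrocarbon receptor, AHR, is a ligand-activated transcription factor that waits in the cytosol bound to the chaperone HSP90. After binding a ligand, such as a dioxin, a polycyclic hydrocarbon or a product of tryptophan, it enters the nucleus, pairs with ARNT and binds response elements with the core GCGTG. CYP1A1 and CYP1B1, enzymes that oxidise many of these ligands, are its best known targets in gut epithelium and elsewhere. AHRR, a repressor that competes for ARNT, and TIPARP, an ADP-ribosyltransferase that modifies AHR, are also induced by the receptor and limit its action.

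The bases before the start sites of 3 of the genes are shown with the letters of the response element core marked, whether or not the receptor acts there. Each run is the 250 bases before a RefSeq start (GRCh38.p14), printed 5′ to 3′ on the gene's strand, with GCGTG, or CACGC where the match lies on the other strand, in capitals. CYP1A1 is chr15:74725529-74725778 on the minus strand, AHRR is chr5:321464-321713 on the plus strand, and TIPARP is chr3:156674340-156674589 on the plus strand.
CYP1A1: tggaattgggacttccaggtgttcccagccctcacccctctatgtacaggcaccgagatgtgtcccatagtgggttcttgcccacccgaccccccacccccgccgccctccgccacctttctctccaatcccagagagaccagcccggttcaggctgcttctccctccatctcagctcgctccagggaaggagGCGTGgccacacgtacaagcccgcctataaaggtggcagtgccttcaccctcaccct
AHRR: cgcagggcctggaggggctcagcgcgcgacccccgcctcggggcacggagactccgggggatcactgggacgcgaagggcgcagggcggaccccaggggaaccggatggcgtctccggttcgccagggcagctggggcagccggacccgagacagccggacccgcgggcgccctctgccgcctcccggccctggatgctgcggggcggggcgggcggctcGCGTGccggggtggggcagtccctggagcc
TIPARP: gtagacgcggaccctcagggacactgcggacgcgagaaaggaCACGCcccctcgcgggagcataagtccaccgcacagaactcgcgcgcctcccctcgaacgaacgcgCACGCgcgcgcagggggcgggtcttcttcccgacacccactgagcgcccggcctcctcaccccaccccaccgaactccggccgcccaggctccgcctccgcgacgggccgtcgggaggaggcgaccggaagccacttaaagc

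In these runs the CYP1A1 core started at position -57, counted back from the start site, and the first AHRR window held 1 core at position -30. That AHRR match was also the only one of the longer form TNGCGTG, starting at position -32, in the 8 windows matched for 5 of the 6 genes (all but CYP1B1). The first TIPARP window held 2 cores, at positions -208 and -142, both on the other strand. A second AHRR window held 2 more cores, at positions -247 and -42, and the windows of AHR and ARNT and the other TIPARP windows held none. On either strand, 4.52% of the 35116 RefSeq windows of the same length hold TNGCGTG and 32.2% hold GCGTG, and each TNGCGTG match contains a GCGTG match. A match is a run of letters and was not shown here to be a bound site, and a window without one says nothing about elements farther away.

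The libraries held between 16401813 and 20571924 counts. ELAPOR1 had 225, 227 and 144 counts in the vector libraries and 349496, 404278 and 370187 in the ELAPOR1 libraries, which fits the labels. All 7 epithelial and colon markers were detected, at 9.26 to 795 FPKM in vector and 6.19 to 769 FPKM in ELAPOR1 cells. The keratin genes KRT18 and KRT8 led in vector cells. By edgeR at an adjusted p under 0.05, 4 markers fell and none rose, where 11.4% and 10.0% of all tested genes did. The log2 fold changes of the 4 were -0.76 for CDH1, -0.56 for CDX2, -0.45 for KRT19 and -0.14 for KRT8. FPKM is a count per kilobase of exonic length scaled to the library total, the unit used here to compare genes. Of 12 markers of fibroblasts, immune cells and endothelium, the endothelial CDH5 was at 0 in all libraries, and the list summed to 6.46 to 6.98 FPKM in vector and 9.05 to 10.9 FPKM in ELAPOR1 libraries. LUM, which encodes lumican, made up most of that sum and rose by 0.64 (log2; edgeR adjusted p = 3.9e-07). The part of the marker differences in the results was not tested.

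CYP1A1, which hydroxylates polycyclic hydrocarbons and oestradiol, was higher in ELAPOR1 cells, from very few reads. It had 18, 19 and 19 counts in the vector libraries and 52, 40 and 55 in the ELAPOR1 libraries. The lowest ELAPOR1 library therefore held more than the highest vector library, and the groups did not overlap. Scaled for library size with TMM factors (CPM), its level was 0.997 ± 0.134 in vector and 2.79 ± 0.611 in ELAPOR1 cells (SD, n = 3 each). The edgeR fit over all genes gave a log2 fold change of 1.48 ± 0.336 (SE), a 2.79-fold difference. At this depth, counting error alone is wide: the exact Poisson 95% interval was 0.694 to 1.80 CPM in the highest vector library and 1.49 to 2.84 CPM in the lowest ELAPOR1 library. Those intervals overlap for these single libraries, while the ratio of summed counts, 147 against 56 and scaled for depth, was 2.80 with an exact 95% interval of 2.04 to 3.88. These intervals cover counting error only. In bulk RNA a change in the share of cells that express the gene cannot be told apart from a change in RNA per cell.

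CYP1B1, the related enzyme that also hydroxylates oestradiol and procarcinogens, had still fewer reads. Its counts were 14, 20 and 9 in the vector libraries and 31, 46 and 54 in the ELAPOR1 libraries. These groups did not overlap either, although the libraries of each group were more spread than for CYP1A1 in vector cells. The level was 0.743 ± 0.213 CPM in vector and 2.45 ± 0.563 CPM in ELAPOR1 cells (SD, n = 3 each), a log2 fold change of 1.70 ± 0.375 (SE), or 3.24-fold. The ratio of summed counts, 131 against 43, was 3.25 with an exact 95% counting interval of 2.28 to 4.70. For comparison, the authors' deposited table gives log2 fold changes of 1.49 for CYP1A1 and 1.70 for CYP1B1. The third enzyme of the family, CYP1A2, which is mainly a liver enzyme, had 0 counts in all 6 libraries, which allows up to between 0.146 and 0.183 CPM in a library (3 counts).

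The receptor and its partner were expressed at moderate levels and differed little between the groups. AHR had 587, 605 and 413 counts in the vector libraries and 422, 533 and 479 in the ELAPOR1 libraries. On the CPM scale this was 29.99, 29.3 and 25.05 in vector and 26.0, 27.8 and 26.9 in ELAPOR1 cells, so all the ELAPOR1 libraries lay within the vector range. The log2 fold change was -0.07 ± 0.0829 (SE). ARNT, the partner that AHR shares with the hypoxia factors, stood at 34.6, 31.3 and 33.1 CPM in vector and 30.1, 29.8 and 28.7 CPM in ELAPOR1 cells. Here the ELAPOR1 libraries were all below the vector libraries, by a log2 fold change of -0.16 ± 0.0770 (SE), or 1.12-fold. Counts of ARNT were 678, 647 and 546 against 490, 571 and 512.

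The feedback genes showed no such separation of the groups. TIPARP had 2237, 2252 and 1907 counts in vector and 1786, 2033 and 1982 in ELAPOR1 libraries, or 113 ± 3.49 and 109 ± 2.61 CPM (SD, n = 3 each). Its libraries overlapped, and the log2 fold change was -0.05 ± 0.0440 (SE). Its counting interval was also narrow, with a ratio of summed counts of 0.966 (exact 95% interval 0.933 to 1.002). AHRR had 147, 131 and 133 counts in vector and 176, 179 and 127 in ELAPOR1 libraries. That is 7.51, 6.34 and 8.07 CPM against 10.8, 9.35 and 7.13 CPM, with ELAPOR1 replicate 3 inside the vector range and the other two above it. The log2 fold change of AHRR was 0.32 ± 0.149 (SE), and it was 0.18 without ELAPOR1 replicate 1 and 0.47 without ELAPOR1 replicate 3. Its ratio of summed counts was 1.25 (exact 95% interval 1.09 to 1.43), an interval that excludes 1 but covers counting error only.

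**Figure D1:**
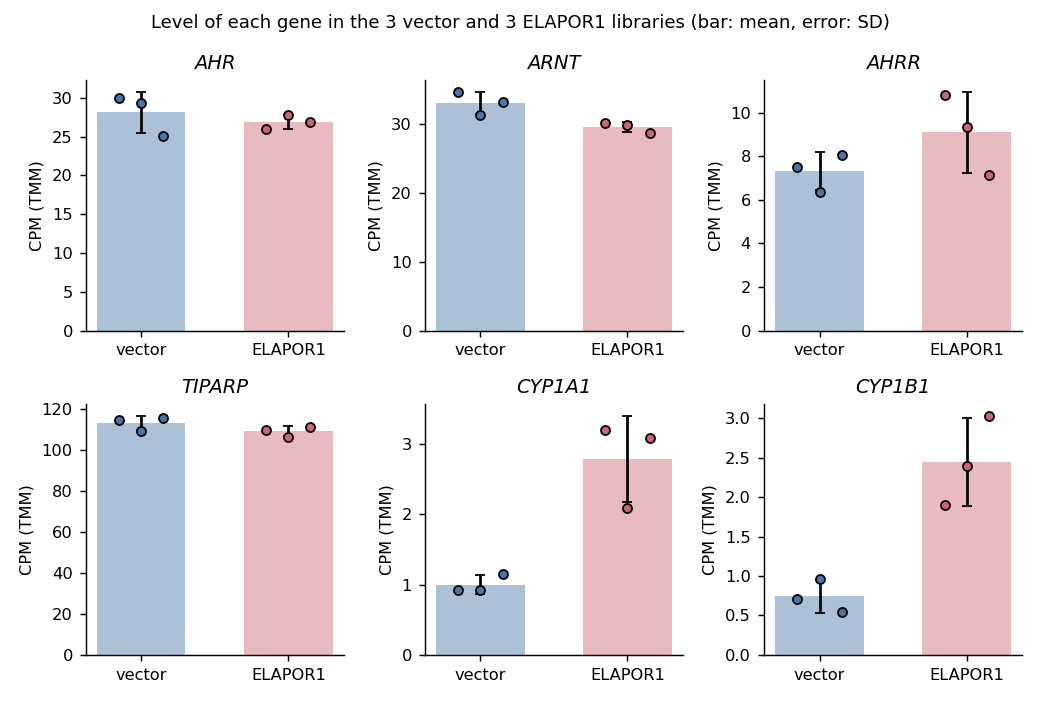
Level in CPM (counts scaled for library size with TMM factors, linear axis from 0) of each of the 6 genes in the 3 vector and 3 ELAPOR1 libraries; points are libraries, bars means and error bars SD. The points of CYP1A1 and CYP1B1 are separated, from means of 0.997 and 0.743 CPM in vector to 2.79 and 2.45 CPM in ELAPOR1 cells, while those of AHR, AHRR and TIPARP overlap and those of ARNT lie slightly lower in ELAPOR1 cells.

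All 6 genes passed the filter on low counts, in each of the 6 libraries. Of these, 2 did not overlap between the groups with ELAPOR1 higher (CYP1A1 and CYP1B1) and 1 with ELAPOR1 lower (ARNT), where 16.4% and 17.4% of the 16003 tested genes did so and 33.8% did in either direction. The median log2 fold change of the 6 was 0.13, beside 0.00407 over all tested genes. Since the genes were proposed from this contrast, nothing is read from these counts.

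Per transcript length, the order of the 6 genes ran from the feedback enzyme to the CYP1 enzymes. In vector libraries TIPARP stood at 24.0, 22.8 and 24.2 FPKM, ARNT at 5.42, 4.88 and 5.16 FPKM, and AHR at 3.76, 3.65 and 3.13 FPKM. AHRR followed at 0.80, 0.67 and 0.86 FPKM, CYP1A1 at 0.28, 0.27 and 0.34 FPKM, and CYP1B1 at 0.12, 0.16 and 0.09 FPKM. No neighbours in this order overlapped among the vector libraries. Among the 16003 tested genes the vector levels lay at percentile 88.0 for TIPARP, 55.5 for ARNT, 47.2 for AHR, 20.9 for AHRR, 8.91 for CYP1A1 and 2.64 for CYP1B1.

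In ELAPOR1 libraries the order was the same, but AHRR and CYP1A1 no longer separated. AHRR stood at 1.13, 0.98 and 0.74 FPKM and CYP1A1 at 0.94, 0.62 and 0.91 FPKM, so these neighbours overlapped. CYP1B1, at 0.31, 0.40 and 0.50 FPKM, remained below CYP1A1 in all libraries. The receptor exceeded its repressor in every library, with a ratio of AHR to AHRR in FPKM of 4.60 ± 0.909 in vector and 3.60 ± 0.833 in ELAPOR1 cells (SD, n = 3 each), a difference smaller than the range among libraries. Of the words of 50 bases in their transcripts, AHR shares 31.8% and AHRR 2.49% with other genes. The part of such sharing in the levels and ratios between genes was not tested. ARNT was 1.48 ± 0.159 times AHR in vector and 1.38 ± 0.0673 times in ELAPOR1 cells, and TIPARP 6.79 ± 0.823 and 6.81 ± 0.376 times. AHR was 12.1 ± 2.46 times CYP1A1 in vector and 4.19 ± 1.18 times in ELAPOR1 cells, and the libraries of the groups did not overlap in this ratio, which contains the CYP1A1 difference itself.

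**Figure D2:**
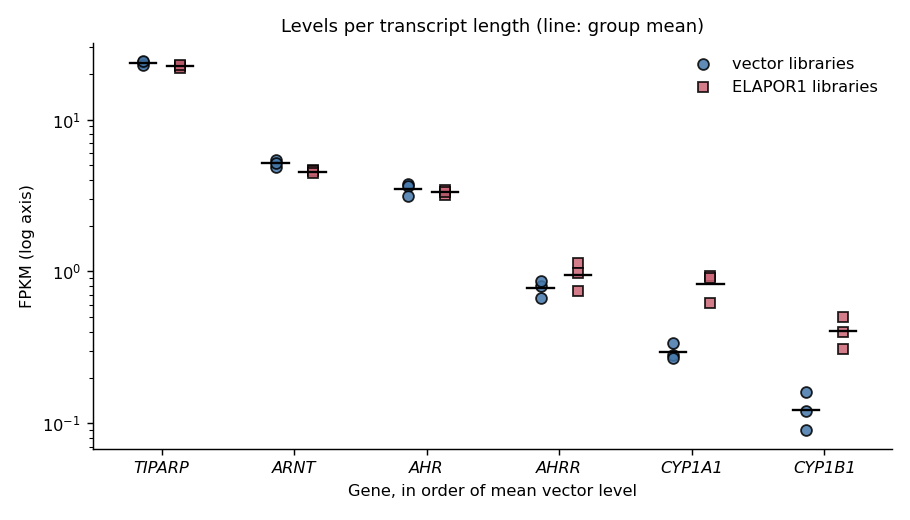
FPKM of the 6 genes on a log axis, ordered by mean vector level, with circles for vector and squares for ELAPOR1 libraries and a line at each group mean. TIPARP is highest at 23.7 FPKM on average in vector cells and CYP1B1 lowest at 0.123, and in ELAPOR1 cells the points of CYP1A1 reach those of AHRR.

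Reads of some of these genes could be shared with other genes, and no source used here says whether reads were counted by strand. CYP1A1 (ENSG00000140465, GRCh38 chromosome 15, 74719542 to 74725536, minus strand) overlaps no other gene of the table, and none of its 3704 distinct words of 50 bases occurs in another gene's GENCODE 29 transcripts, CYP1A2 included. TIPARP (ENSG00000163659, chromosome 3, 156673235 to 156706770, plus strand) also shares none of its 4992 words, though its 5′ end overlaps the antisense TIPARP-AS1. That antisense gene had 7, 0 and 11 counts in vector and 20, 16 and 6 in ELAPOR1 libraries (log2 fold change 1.27 ± 0.610 SE, edgeR adjusted p = 0.136), small beside TIPARP.

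CYP1B1 (ENSG00000138061, chromosome 2, 38066973 to 38109902, minus strand) overlaps the antisense CYP1B1-AS1 and the gene RMDN2, and shares 594 of 6151 words (9.66%) with them and RMDN2-AS1. CYP1B1-AS1 had 0, 4 and 0 counts in vector and 0, 1 and 9 in ELAPOR1 libraries, so its highest value fell in the library where CYP1B1 was highest. RMDN2 had 105 to 131 counts in vector and 89 to 113 in ELAPOR1 libraries, with a log2 fold change of -0.11 ± 0.168 (SE; edgeR adjusted p = 0.724). The part of the overlap in the CYP1B1 values was not tested.

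AHRR (ENSG00000063438, chromosome 5, 321714 to 438291, plus strand) lies within PDCD6-AHRR, a gene model that joins it to PDCD6. PDCD6-AHRR had 8, 3 and 12 counts in vector and 2, 29 and 4 in ELAPOR1 libraries, too few to pass the filter, and reads in the exons of both cannot be told apart. The pseudogene ENSG00000250645 inside AHRR had 17 to 26 counts in vector and 7 to 18 in ELAPOR1 libraries (log2 fold change -0.53 ± 0.451 SE, edgeR adjusted p = 0.463). AHR (ENSG00000106546, chromosome 7, 16916359 to 17346152, plus strand) shares 2373 exonic bases with ENSG00000283321 in GENCODE 29, which is listed at 0 counts in all libraries, and 31.8% of its words occur in other genes. The antisense ENSG00000237773, which shares 270 exonic bases with AHR, had 16 to 26 counts in vector and 14 to 21 in ELAPOR1 libraries (edgeR adjusted p = 0.838). ARNT (ENSG00000143437, chromosome 1, 150809713 to 150876708, minus strand) shares 27 of 6823 words.

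**Figure D3:**
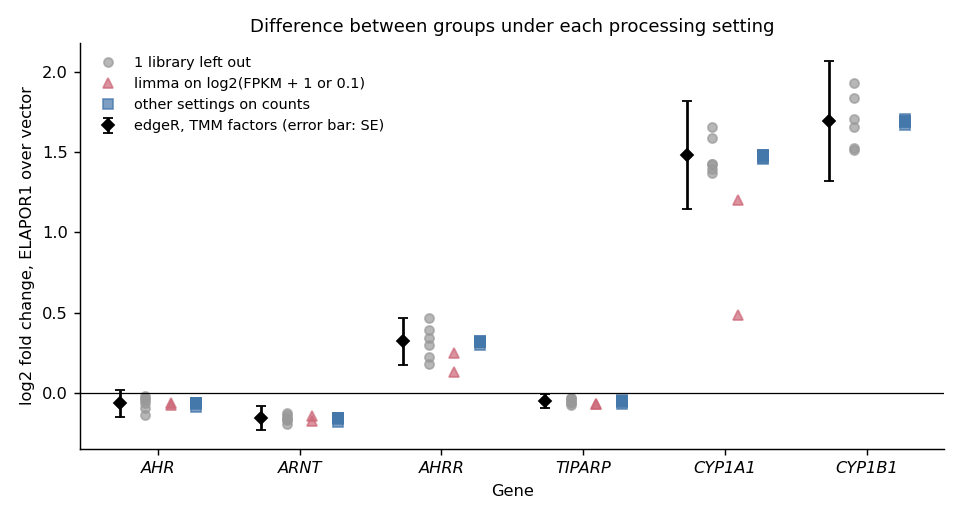
Log2 fold change of ELAPOR1 over vector (linear axis) for each gene with edgeR and TMM factors (diamond, bar: SE), with 1 library left out (circles), with limma on log2(FPKM + 1) or log2(FPKM + 0.1) (triangles) and with other settings on counts (squares). All values of CYP1A1 and CYP1B1 lie above 0 and all of AHR, ARNT and TIPARP below 0; CYP1A1 is 1.48 on counts but 0.49 with a pseudocount of 1 FPKM, and CYP1B1 has no triangle because it was under the FPKM filter.

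The other cytochrome P450 genes show where the CYP1 genes stand within the superfamily. Among 55 protein-coding P450 genes, of which 41 had a count, CYP1A1 had rank 15 and CYP1B1 rank 17 by FPKM in vector cells, and ranks 11 and 16 in ELAPOR1 cells. Together they made up 1.35%, 1.501% and 1.54% of the summed P450 FPKM in the vector libraries and 3.72%, 2.99% and 4.23% in the ELAPOR1 libraries. The groups did not overlap in this share, which contains the differences of both genes. Of the other 53 genes, 18 were tested, 3 rose and none fell by edgeR at an adjusted p under 0.05, where 10.0% of all tested genes rose, 11.4% fell and 21.4% did either. Their median log2 fold change was 0.24. CYP2B6, a drug-metabolising enzyme of liver, rose from 2.82 ± 0.870 to 6.39 ± 0.437 CPM (SD, n = 3 each; log2 fold change 1.17 ± 0.206 SE, edgeR adjusted p = 6.25e-06). CYP2S1, itself reported as a receptor target, was the most abundant P450 gene at 8.11 FPKM in vector cells and rose by 0.35 ± 0.0856 (log2, SE; edgeR adjusted p = 0.00145). The vitamin D 25-hydroxylase gene CYP2R1 rose by 0.23 ± 0.0832, at an edgeR adjusted p of 0.0392 that was 0.0966, 0.205, 0.219 and 0.0996 without vector replicate 2, vector replicate 3, ELAPOR1 replicate 2 and ELAPOR1 replicate 3. Without ELAPOR1 replicate 1 or 3, 1 other P450 gene fell.

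**Figure D4:**
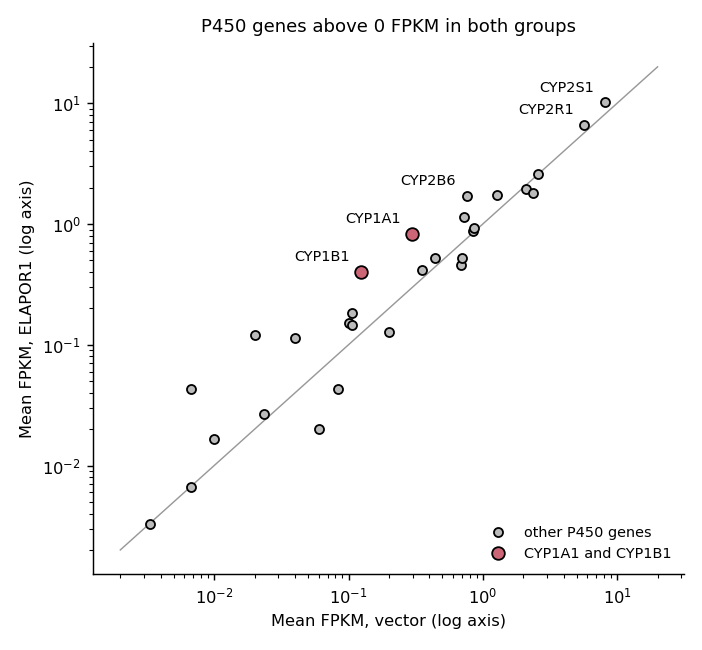
Mean FPKM in ELAPOR1 against vector cells (log axes) for the 29 P450 genes above 0 FPKM in both groups, with CYP1A1 and CYP1B1 as larger red points and a line of equal level. CYP1A1 and CYP1B1 lie above the line at low levels, and CYP2S1, the most abundant, lies just above it at 8.11 FPKM in vector cells.

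Among 15 other genes reported as receptor targets, 8 were tested. Of these, 6 rose and 1 fell (10.0% and 11.4% of all tested genes), with a median log2 fold change of 0.31, beside 0.00407 for all tested genes. The list was chosen with earlier results of these data known, so nothing is read from that count or median. Besides CYP2S1, the transporter gene ABCG2 rose by 2.58 ± 0.627 (edgeR adjusted p = 0.00116) from 6, 3 and 0 counts to 15, 21 and 16, a value that was 3.50 without vector replicate 1 and 2.09 without vector replicate 3. Its mean was 0.151 CPM in vector and 0.972 CPM in ELAPOR1 cells, beside a low-count filter cutoff of 0.537 CPM. ABCG2 was thus tested only through the ELAPOR1 libraries, where it is high, and nothing is read from its call. The aldehyde dehydrogenase gene ALDH3A1, long known as a target, rose from 39.5 ± 1.45 to 61.6 ± 4.47 CPM (log2 fold change 0.64 ± 0.0626, edgeR adjusted p = 1.99e-13). The other genes that rose are named after their values were seen: the quinone reductase gene NQO1 at 0.36, the amino acid transporter gene SLC7A5 at 0.28, and NFE2L2, the gene of the antioxidant factor NRF2, at 0.13, with edgeR adjusted p of 4.45e-18, 6.55e-13 and 0.0262. NQO1 is also a target of NRF2. The scaffold gene NEDD9 fell by 0.36 (log2; edgeR adjusted p = 0.0122), a call lost without ELAPOR1 replicate 2 at an adjusted p of 0.192. The NFE2L2 call was lost without vector replicate 1 or 2 or ELAPOR1 replicate 1 or 3, with an adjusted p of at most 0.164. UGT1A1 and UGT1A6, targets in the UGT1A locus whose transcripts share exons, had 0 to 6 counts per library, and GSTA1 and PTGS2 had 0 counts.

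Of 13 chaperones and cofactors of the receptor, all tested, 3 rose and 1 fell, where 10.0% and 11.4% of all tested genes did. Their median log2 fold change was 0.04. The histone acetyltransferase gene EP300 rose by 0.26 ± 0.0498 and the coactivator gene NCOA1 by 0.24 ± 0.0723, with edgeR adjusted p of 2.32e-05 and 0.0123. The EP300 value was 0.37 without vector replicate 1 and 0.19 without vector replicate 2, and the NCOA1 call was lost without vector replicate 3 (adjusted p = 0.117) and without ELAPOR1 replicate 2 (0.185). HSP90AA1, named after its value was seen, encodes the HSP90 chaperone that binds AHR and rose by 0.13 at an edgeR adjusted p of 2.0e-05.

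Of 13 other bHLH-PAS genes, the family of AHR and ARNT, 8 were tested, 3 fell and none rose. Among all tested genes, 11.4% fell and 10.0% rose. The median log2 fold change of the 8 was -0.19. The ARNT paralog ARNT2 fell from 38.1 ± 3.00 to 27.4 ± 1.57 CPM (log2 fold change -0.47 ± 0.0774, edgeR adjusted p = 1.21e-06). The clock gene NPAS2 fell by 0.28 ± 0.0760, and by 0.22 without ELAPOR1 replicate 1, and HIF1A, which also pairs with ARNT, by 0.20 ± 0.0324, with edgeR adjusted p of 0.00322 and 1.34e-06.

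Of 12 enzymes that make or break down tryptophan-derived ligands, 7 were tested, 2 rose and none fell, with a median of -0.06. Among all tested genes, 10.0% rose and 11.4% fell. HAAO, of the kynurenine pathway, rose by 1.69 ± 0.370 from 17, 14 and 12 counts to 41, 51 and 39 (edgeR adjusted p = 0.000288), and QPRT by 0.18 ± 0.0628 (edgeR adjusted p = 0.0286). The QPRT call was lost without vector replicate 1, vector replicate 2, ELAPOR1 replicate 1 or ELAPOR1 replicate 3, at adjusted p of 0.0747, 0.0898, 0.0562 and 0.168. IDO1, which starts the kynurenine pathway, had 0, 6 and 0 counts in vector and 2, 0 and 1 in ELAPOR1 libraries.

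Of 13 genes of oestrogen metabolism, the substrates of the CYP1 enzymes, 11 were tested, 3 rose and none fell, with a median of 0.19. Among all tested genes, 10.0% rose and 11.4% fell. HSD17B2, which inactivates oestradiol, rose by 1.72 ± 0.318 from 11, 23 and 23 counts to 55, 62 and 61 (edgeR adjusted p = 1.72e-05), and the peroxisomal HSD17B4 from 77.9 ± 4.05 to 148 ± 2.03 CPM (log2 fold change 0.92 ± 0.0448, edgeR adjusted p = 2.1e-28). The sulfotransferase gene SULT2B1 rose by 0.55 ± 0.178 (edgeR adjusted p = 0.0171), a call lost without vector replicate 2, vector replicate 3 or ELAPOR1 replicate 1, at adjusted p of 0.0655, 0.0671 and 0.0871.

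Of 7 P450 redox partners, all tested, none rose and 1 fell (10.0% and 11.4% of all tested genes), with a median of -0.02. That was the adrenodoxin gene FDX1 of mitochondrial P450 enzymes, by 0.16 ± 0.0581 (edgeR adjusted p = 0.0402), a call lost without any one library but vector replicate 1, at adjusted p of 0.072 to 0.187. POR, the reductase that supplies CYP1A1 and CYP1B1 with electrons, did not pass. In the PARP family besides TIPARP, 14 of 15 genes were tested, with a median of 0.00. Of these, 1 rose and 1 fell (10.0% and 11.4% of all tested genes). The interferon-induced PARP9 rose by 0.40 ± 0.0967 (edgeR adjusted p = 0.00124) and PARP2 fell by 0.17 ± 0.0637 (edgeR adjusted p = 0.0387), the latter lost without any one library but vector replicate 3, at adjusted p of 0.0615 to 0.314. Of 6 xenobiotic nuclear receptor genes 4 were tested, 1 rose and none fell, beside the same shares of all tested genes. RXRA rose by 0.31 ± 0.0664 (edgeR adjusted p = 0.000243), while the median was 0.06. A second gene of that list rose without vector replicate 1 or ELAPOR1 replicate 1.

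Over these 8 lists together, 72 of 94 genes were tested, 16 rose and 7 fell (4 fell without ELAPOR1 replicate 2), with a median log2 fold change of 0.02. That is 31.9% of those tested, beside 21.4% of all genes. As the lists were chosen with earlier results of these data known, nothing is read from that share. The lists were described only by these counts.

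**Figure D5:**
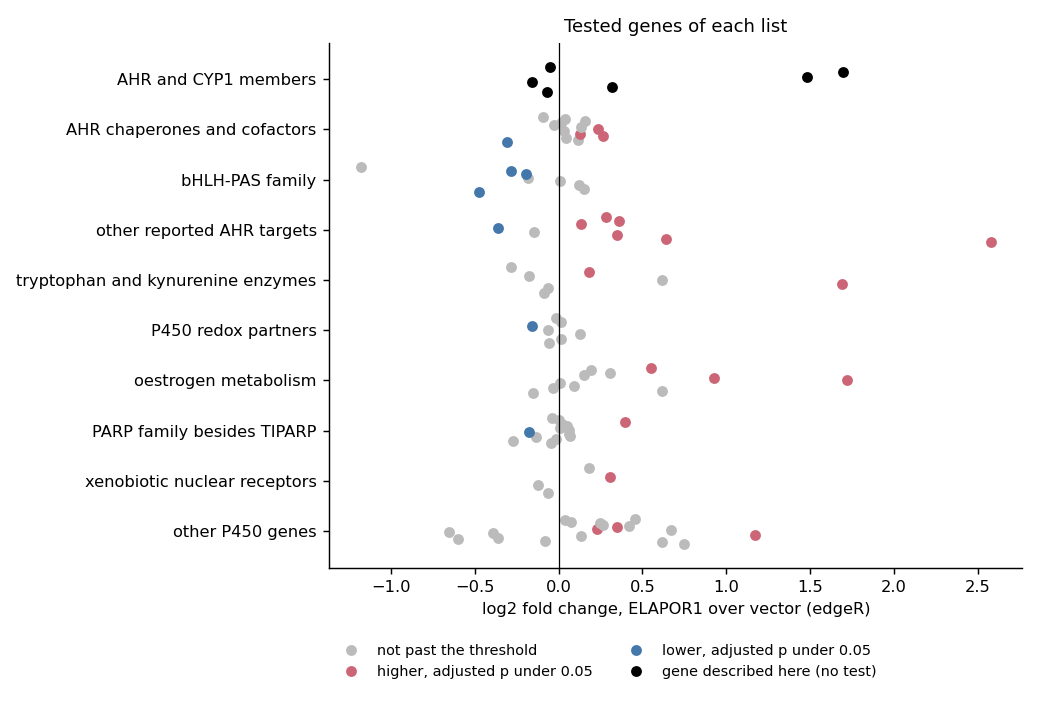
Log2 fold change of ELAPOR1 over vector (linear axis) for the tested genes of each list, 1 point a gene, red where higher and blue where lower at an edgeR adjusted p under 0.05, grey otherwise, and black for the 6 genes described here, which carry no test. CYP1A1 at 1.48 and CYP1B1 at 1.70 stand apart from the other black points, and 6 of the 8 tested points among other reported targets are red. The lists were chosen with earlier results of these data known.

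The genes whose pattern over the 6 libraries was most like that of each CYP1 gene were sought among 12630 other protein-coding genes, by the root mean square difference of centred log2 CPM. Nearest to CYP1A1 were PLCG2, a phospholipase gene, at 0.138, CAVIN2, a caveolar coat gene, at 0.163, and ACTA2, smooth muscle actin, at 0.163. PLCG2 stood at 1.74, 1.60 and 2.24 CPM in vector and 4.80, 4.02 and 4.71 CPM in ELAPOR1 libraries, with ELAPOR1 replicate 2 the lowest of its group as for CYP1A1. Nearest to CYP1B1 were ETV7, a transcription factor gene, at 0.154, OLFM1 at 0.188 and SELENOP, a selenium carrier, at 0.193. These genes had 55 to 756 counts in all, so counting error is part of their pattern. Under the filter cutoff of 0.537 CPM in vector libraries were ACTA2 (0.153, 0.194 and 0.303), ETV7 (0.409 and 0.364) and OLFM1 (0.485). ACTA2, ETV7 and OLFM1 thus passed the filter only through the ELAPOR1 libraries, where they are high, and nothing is read from their nearness. Of the 6 genes, CYP1B1 had rank 197 in likeness to CYP1A1, and CYP1A1 rank 82 in likeness to CYP1B1, at a distance of 0.416. AHRR came next, at rank 1265 for CYP1A1 and 3355 for CYP1B1, and AHR, ARNT and TIPARP had ranks between 6615 and 10044. This distance contains the difference between the groups, for which both CYP1 genes were selected. Their likeness to each other, and their distance from genes that differ little, was therefore set by that choice, and nothing is read from it.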

How the data were processed

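Poly(A) RNA of 6 SW620 libraries (3 vector, 3 ELAPOR1), each from 1 ug of total RNA, was measured. One deposited table pairs raw, whole-number read counts with the authors' FPKM; each of the 142222 FPKM values checked matched count over exonic length and library total to within 0.01. Per the submitters' processing notes, the tools named were cutadapt 1.9.1, HISAT2 2.0.1, HTSeq 0.6.1 and DESeq2 with GRCh38. A second deposited table holds the authors' own log2 fold changes with their p-values, of which only the former are quoted. Columns were matched by name, K read as KIAA1324, the older symbol of ELAPOR1, and NC as negative control.

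The quasi-likelihood test of edgeR 4.0.16 (R 4.3.3) was run on the counts after filterByExpr, with TMM factors (Benjamini-Hochberg adjustment over 16003 tested genes, two-sided, threshold 0.05), after testing on simulated data. Each standard error (SE) divides the absolute log2 fold change by the root of its F statistic. Pairs of libraries within a group differed by a mean chi-square per gene of 2.43 to 3.62, above what sampling noise alone gives, so none was merged. Alternatives used DESeq2 1.42.0, limma 3.58.1 on log2(FPKM + 1) and log2(FPKM + 0.1) with a mean-variance trend and at least 0.5 FPKM in 3 libraries, other scalings and filters, a replicate block, and each library left out.

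The genes and lists were chosen with earlier results of these data known. Named are, from each list, up to 3 genes past the threshold with the largest change, the genes that overlap the 6, and the 3 most like each CYP1 gene; other list genes are named after their values were seen. Single results of some list genes are not reported here. Promoter windows and positions come from RefSeq (GRCh38.p14) and biotypes from GENCODE 29.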

Additional observations from a re-analysis of the deposited data

How the results depend on the processing

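The direction of the log2 fold change of all 6 genes was the same under every alternative that gave a value. With 1 library left out it ranged from -0.14 to -0.02 for AHR, -0.20 to -0.13 for ARNT, 0.18 to 0.47 for AHRR, -0.08 to -0.03 for TIPARP, 1.37 to 1.66 for CYP1A1 and 1.51 to 1.94 for CYP1B1. CYP1A1 was 0.49 with limma on log2(FPKM + 1) and 1.20 with log2(FPKM + 0.1), where a pseudocount understates the change of a low gene; CYP1B1 was under the FPKM filter and gave no value. Depth limits both: CYP1B1 rests on 43 counts and CYP1A1 on 56 counts in the vector group. With these 2 FPKM fits, 14 and 14 of the genes in the 8 lists passed in place of 23, and 2133 and 2098 genes in place of 3427 in the whole table, of which 727 and 713 were higher in place of 1607 (1035 with DESeq2, of 2352 in all); the cause was not tested. Leaving out 1 library gave 18 to 23 list genes, 2 to 4 other P450 genes, and 2723 to 3187 genes in the whole table (1244 to 1455 higher and 1466 to 1732 lower). The share of promoter windows with a match was 32.2% for GCGTG in place of 4.52% for TNGCGTG, as the shorter word must be commoner. Of 25 named list genes past the threshold, the call of 14 held under every alternative in which it had a value and 11 calls ended under some alternative, with no direction reversed. EP300, NPAS2 and PARP9 lost theirs in the FPKM fits alone. NCOA1, NEDD9, NFE2L2, QPRT, FDX1, SULT2B1, PARP2 and CYP2R1 lost theirs with DESeq2, at DESeq2 adjusted p of 0.0707 to 0.143. Of these, FDX1 and SULT2B1 kept theirs in the FPKM fits and the others lost theirs there as well. Same-numbered libraries had deviations from their group means that correlated at -0.0216, -0.0345 and -0.0209, and none correlated best with its own number, so the numbers were not taken as a pairing. With the replicate block CYP1A1 was 1.46, CYP1B1 1.69, AHRR 0.32, ARNT -0.16, AHR -0.06 and TIPARP -0.05, and 23 list genes and 3361 genes of the whole table passed; it changed no call of a named gene.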
